A study of Mus musculus with 12 samples.

Results

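The 94 genes described here encode subunits of the oxidative phosphorylation system, and 13 of them are on mitochondrial DNA. They were taken by name from a deposited expression table of 15672 genes: every gene whose symbol begins with mt-, with Nduf and 1 of the letters a, b, c, s or v before a digit, with Uqcr, with Cox and a digit between 4 and 8, or with Atp5, and the 4 genes Sdha, Sdhb, Sdhc and Sdhd. The name patterns use no expression value. The 13 mitochondrially encoded genes contribute 7 subunits to complex I, 1 to complex III, 3 to complex IV and 2 to complex V. The 81 nuclear genes contribute 35 to complex I, 4 to complex II, 9 to complex III, 16 to complex IV and 17 to complex V.

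RNA of end-point tumors, a tissue labelled MB, was sequenced in bulk from male and female mice. YSGr mice had the genotype fYap1;fSMO-M2;hGFAPcre and SG mice fSMO-M2;hGFAPcre, so both carried the SMO-M2 allele, an oncogenic Smoothened that signals in the Hedgehog pathway without ligand, and a Cre recombinase driven by the human GFAP promoter, and only YSGr mice carried the fYap1 allele. The design text calls YSGr rescued without saying what was rescued, and the labels give no ages. There were 12 libraries, 3 each of YSGr males (7 to 9), YSGr females (10 to 12), SG males (1 to 3) and SG females (4 to 6). Nothing states that they came from separate animals, so a p-value here measures only how these samples spread, and some of that spread may be technical.

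Oxidative phosphorylation passes electrons from NADH through complex I, or from succinate through complex II, to ubiquinone, on through complex III and cytochrome c to complex IV, and uses the resulting proton gradient to make ATP at complex V. Complexes I, III, IV and V are built from subunits of both genomes, whereas complex II is wholly nuclear. The mitochondrial genes are transcribed as long RNAs from both strands of the circle and cut into single messages, apart from the pairs mt-Atp8 with mt-Atp6 and mt-Nd4l with mt-Nd4, which stay together on shared messages. Nuclear subunit genes are transcribed one by one, and factors such as NRF1, GABPA, YY1 and the estrogen-related receptors are known to act on many of them.

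The paired messages set a limit on what a read count can separate, so the stretches they share are shown. In GENCODE M21 (build mm10) mt-Atp8 lies at chrM:7766-7969 on the plus strand and mt-Atp6 at chrM:7927-8607. The first line below is the whole mt-Atp8 gene, 5′ to 3′, with the 43 bases it shares with mt-Atp6 in capitals, 21.1% of its length of 204 bases. The second is the last 60 bases of mt-Nd4l (chrM:10114-10173, plus strand), with the 7 bases shared with mt-Nd4 in capitals.
mt-Atp8: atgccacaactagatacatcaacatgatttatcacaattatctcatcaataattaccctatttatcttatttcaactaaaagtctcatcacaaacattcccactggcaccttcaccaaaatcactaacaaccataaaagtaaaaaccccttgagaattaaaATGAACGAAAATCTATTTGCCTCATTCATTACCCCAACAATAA
mt-Nd4l end: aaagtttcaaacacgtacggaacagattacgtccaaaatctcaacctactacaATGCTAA
A read lying wholly within the capitals cannot be assigned to 1 gene of its pair. The annotation holds 2 other overlaps, 1 base between mt-Atp6 and mt-Co3 and 14 bases between mt-Nd5 and mt-Nd6, which lie on opposite strands. Whether counting used strand is not given in the sources used here. Nuclear copies of mitochondrial DNA bear on the same question: of the 50-base words of mt-Atp8, mt-Nd1, mt-Nd6 and mt-Cytb, 0% occurred exactly in another annotated transcript, against 99.5% for mt-Atp6, 98.8% for mt-Nd4l and 100% for mt-Co2. For mt-Nd4 the share was 62.2% and for mt-Co1 51.1%. None of the genes that hold those copies were in the deposited table (0 genes), and how the authors' counting treated such reads is not given, so levels of mt-Atp6, mt-Co2, mt-Co3 (99.9%), mt-Nd3 (97.99%), mt-Nd4l, mt-Nd4 and mt-Co1 are uncertain to that extent.

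The libraries held 8854762 to 9478629 estimated reads, recovered from the steps in the deposited log2 CPM values (counts scaled to a common library size, on the log2 scale). Yap1 had 7 to 33 reads in YSGr libraries and 174 to 253 in SG libraries, which is -3.64 on the log2 scale (SE 0.20, adjusted p = 1.1e-06; adjusted p-values here are Benjamini-Hochberg values from limma). SG male 2 stood apart from the other SG libraries: over all 14147 genes tested, its difference from their mean had a median of 0.74 log2 for genes with up to 1000 bases of exon and -0.54 for genes with over 8000. YSGr male 8 also stood apart, as the highest of the 12 libraries for 20.9% and the lowest for 22.3% of all genes. Its oligodendrocyte lineage markers (7 genes) had a mean level of 8.15 log2 CPM, against at most 7.44 in any other library. Markers of forebrain and excitatory projection neurons (6 genes) had 5.56 in it, against at most 4.48 elsewhere. Summed markers of infiltrating macrophages and monocytes (7 genes) came to 446 to 897 CPM in YSGr libraries and 201 to 257 CPM in SG libraries, and neutrophil markers (6 genes) to 43.6 to 119 CPM in YSGr and 11.8 to 15.5 CPM in SG, without overlap in either case. Markers of differentiating and mature granule neurons (11 genes) had mean levels of 7.70, 7.18 and 7.83 log2 CPM in YSGr males. Their levels were 6.60, 7.92 and 6.52 in YSGr females, against 6.42 to 6.82 in SG libraries. Markers of Purkinje cells and interneurons (8 genes) had 5.87, 4.56 and 5.32 log2 CPM in YSGr males and 2.72, 5.49 and 2.62 in YSGr females, against 3.56 to 4.58 in SG libraries. Granule neuron progenitors are the cerebellar cells that Hedgehog signalling is known to expand. Their markers (8 genes) were present throughout, and summed to 2090 to 3689 CPM in YSGr and 3297 to 3583 CPM in SG. These sums overlapped, but the mean levels of the same markers did not. The means were 7.25 to 8.127 log2 CPM in YSGr and 8.132 to 8.36 in SG, so lower in YSGr. Endothelial markers (6 genes) had mean levels of 2.76 to 3.49 log2 CPM in YSGr and 3.37 to 4.30 in SG. Markers of pericytes and fibroblasts (6 genes) had 3.52 to 4.96 in YSGr and 4.43 to 5.07 in SG, and both sets overlapped. In bulk tissue, fewer cells of a type and less RNA per cell cannot be told apart. The part that cell makeup had in the results below was not tested.

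Mitochondrially encoded genes took 5.24 ± 0.53% of the reads in YSGr libraries and 4.54 ± 0.33% in SG libraries (SD, n = 6 each), with ranges of 4.61 to 6.15% in YSGr and 4.07 to 4.92% in SG that overlapped. The highest share was that of YSGr male 8, which was also the highest of the 12 libraries for 7 of the 13 genes. The 81 nuclear genes together took 0.818 ± 0.062% in YSGr and 0.867 ± 0.159% in SG. Apart from SG male 2, with 1.19%, the SG libraries lay between 0.790 and 0.818% for the nuclear genes. Per kilobase of exon, mt-Co1, the catalytic core of complex IV, had the highest value among the mitochondrial genes, within the limit that nuclear copies set, at 11567 CPM per kb in YSGr and 9613 in SG. Next came mt-Co2 (8370 CPM per kb in YSGr and 7574 in SG) and mt-Cytb (5659 in YSGr and 4999 in SG). The lowest was mt-Nd3 of complex I, at 197 CPM per kb in YSGr and 246 in SG, under the same limit. The genes thus spanned 58.7-fold in YSGr and 39.1-fold in SG, and all but mt-Nd6 are cut from the same strand's transcript. The lowest genes, mt-Nd3 (348 bases), mt-Nd6 (519), mt-Nd4l (297) and mt-Atp8 (204), were also the shortest. The part of nuclear copies and of gene length in this span was not tested. The order of the 13 genes was the same in both genotypes except at neighbouring ranks, where mt-Nd4l and mt-Atp8 changed places and so did mt-Co3 and mt-Nd4.

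**Figure D1:**
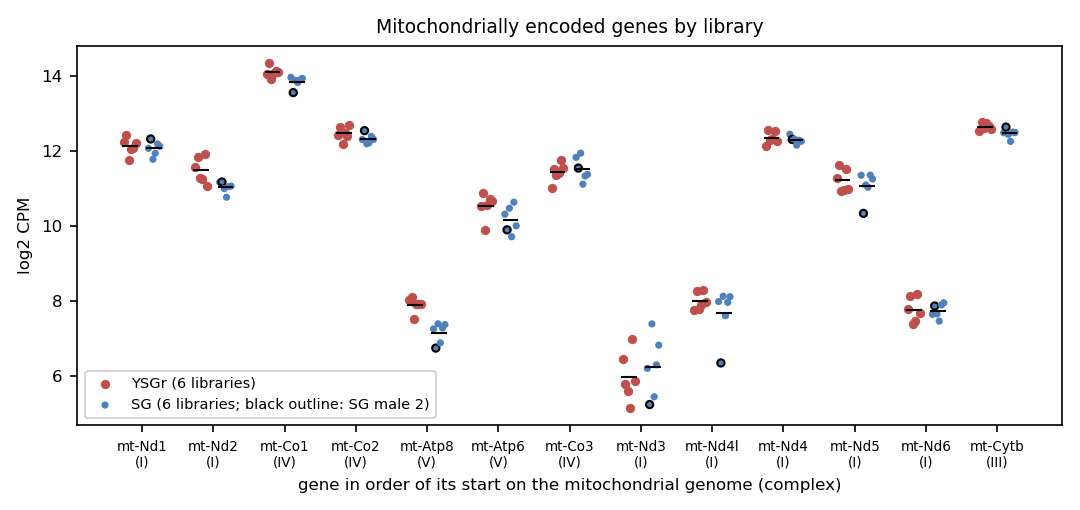
Log2 CPM (vertical axis) of the 13 mitochondrially encoded genes in the 12 libraries, in the order of their starts on the mitochondrial genome, with YSGr to the left of SG for each gene and every point 1 library. The YSGr points of mt-Atp8 lie above all SG points, while those of the other 12 genes overlap with SG. Over all genes tested, 5.90% did not overlap between the genotypes.

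A single mitochondrial gene differed between the genotypes in the test. mt-Atp8, a small membrane subunit of the proton-conducting part of complex V, had 259, 277 and 184 CPM in YSGr males and 242.5, 240.6 and 242.7 CPM in YSGr females. It had 153, 107 and 168 CPM in SG males and 118, 155 and 166 CPM in SG females. Over all genes tested 5.90% had no overlap between the genotypes, and for mt-Atp8 all 6 YSGr libraries were above all 6 SG libraries. YSGr male 9 was the lowest of its genotype and SG male 2 the lowest of all. The mean was 241 ± 31.3 CPM in YSGr and 144 ± 25.6 CPM in SG (SD, n = 6 each), a ratio of 1.67. With the sexes averaged, mt-Atp8 rose by 0.75 log2 (SE 0.14, adjusted p = 0.00482), and this call held under all 21 alternative settings tried, at 0.59 to 0.84. Among all genes tested 11.4% passed the threshold of 0.05 in this comparison, against 1 of the 13 mitochondrial genes, and 2 of the 13 had an unadjusted p under 0.05 (28.6% of all genes).

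By sex, the log2 fold change of mt-Atp8 in males was 0.75 (adjusted p = 0.0396), where 7.85% of all genes were called, and in females it was 0.74 (adjusted p = 0.0660), where 3.01% were called and 0 of the 13 genes passed, with 1 of the 13 at an unadjusted p under 0.05. The male value was 0.56 without SG male 2 and ranged from 0.45 to 0.94 over the alternatives. The male call was lost when any of 8 single libraries was left out, with adjusted p of 0.0521 without SG male 1, 0.108 without SG male 2, 0.0822 without YSGr male 7, 0.141 without YSGr male 8, 0.0507, 0.0632 and 0.0591 without SG females 4, 5 and 6, and 0.0545 without YSGr female 10. The female effect passed instead without SG male 2 (0.0239) and without YSGr male 9 (0.0489).

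mt-Atp6, the larger complex V subunit read from the same message, had 1476, 1898 and 962 CPM in YSGr males and 1514, 1677 and 1624 CPM in YSGr females. It had 1277, 956 and 1426 CPM in SG males and 841, 1595 and 1030 CPM in SG females. Unlike mt-Atp8 its genotypes overlapped, and its log2 fold change of 0.37 (SE 0.19, adjusted p = 0.221) did not pass. The ratio of mt-Atp8 to mt-Atp6 CPM was 0.143 to 0.191 in YSGr and 0.0974 to 0.161 in SG, with some overlap. The difference between the 2 genes' changes was not tested.

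**Figure D2:**
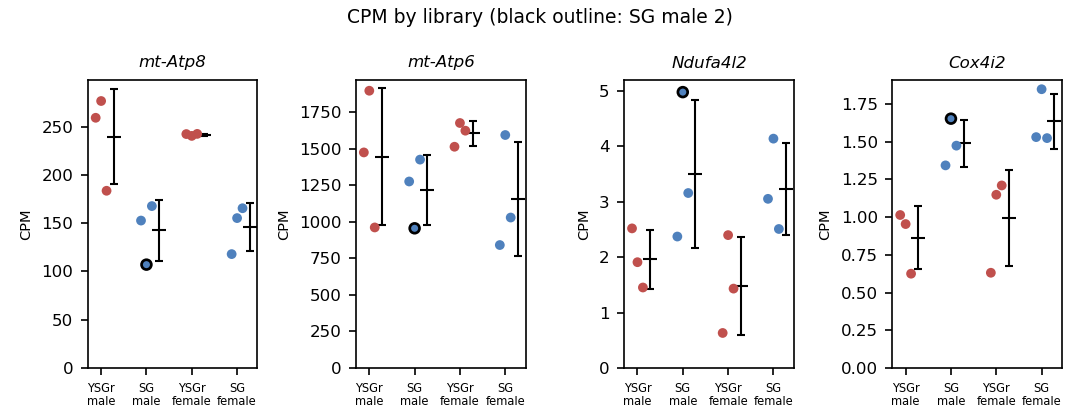
CPM by library for mt-Atp8, mt-Atp6, Ndufa4l2 and Cox4i2, with males before females and YSGr to the left of SG within each sex. Each point is 1 library, the bar is at the group mean with its SD, and SG male 2 is outlined in black. mt-Atp8 and Cox4i2 show no overlap between YSGr and SG, at 184 to 277 against 107 to 168 CPM and at 0.62 to 1.21 against 1.34 to 1.85 CPM. The same held for 5.90% of all genes tested.

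The 7 mitochondrial subunits of complex I, which form its proton-pumping membrane arm, did not pass the test. mt-Nd2 had the largest change among them, with 3078, 3666 and 2515 CPM in YSGr males, 2442, 3861 and 2142 CPM in YSGr females, 2308, 2319 and 2053 CPM in SG males and 1748, 2130 and 2149 CPM in SG females. The YSGr libraries were mostly above SG, but YSGr female 12 lay inside the SG range, and the log2 fold change was 0.45 (SE 0.16, adjusted p = 0.0819; 0.0402 without YSGr female 12). mt-Nd3 ran the other way at -0.26 with a wide error (SE 0.38, adjusted p = 0.687), since it spread from 35.5 to 126 CPM in YSGr and from 37.7 to 168 CPM in SG. mt-Nd1, mt-Nd4 and mt-Nd6 had log2 fold changes of 0.06, 0.06 and 0.03.

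mt-Nd4l and mt-Nd5 turned on 1 library. mt-Nd4l had 81.4 CPM in SG male 2, against 195 to 280 CPM in the other SG libraries and 218 to 314 CPM in YSGr libraries. Its log2 fold change was 0.31 with SG male 2 and 0.02 without it, while mt-Nd4, which shares its message, had 5092 CPM in SG male 2, inside the range of the other SG libraries (4585 to 5614). mt-Nd5 had 1296 CPM in SG male 2 and 2100 to 2632 CPM in the other SG libraries. The ratio of mt-Nd6 to mt-Nd5 CPM, genes that overlap on opposite strands, was accordingly 0.180 in SG male 2 and 0.0762 to 0.101 in the other 11 libraries.

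mt-Cytb, the cytochrome b of complex III, had 5957 to 7058 CPM in YSGr and 4914 to 6406 CPM in SG, and its log2 fold change of 0.18 (SE 0.12, adjusted p = 0.360) did not pass. In complex IV, mt-Co1 had 15620 to 21070 CPM in YSGr and 14637 to 16064 CPM in SG, apart from 12117 CPM in SG male 2, and its log2 fold change was 0.27 (SE 0.16, adjusted p = 0.293). mt-Co2 stood at 0.14. mt-Co3 differed in sign between the sexes, at 0.30 in females and -0.47 in males (adjusted p = 0.116). Its libraries held 2075, 2940 and 2662 CPM in YSGr males against 3657, 2998 and 3950 CPM in SG males. In females they held 2750, 3459 and 3003 CPM in YSGr against 2227, 2592 and 2670 CPM in SG. The female effect minus the male effect was 0.77 (unadjusted p = 0.0123, adjusted p = 0.429); over all genes 0.00707% passed that test.

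None of the 80 nuclear genes that could be tested passed the threshold in any of the 4 limma comparisons, where the shares over all genes were 11.4% averaged over the sexes, 3.01% in females, 7.85% in males and 0.00707% in the difference. Averaged over the sexes 5 of them had an unadjusted p under 0.05, against 28.6% of all genes. Their log2 fold changes had a median of -0.06 and ran from -1.05 to 0.45, 67 of the 80 lay within 0.25 of 0, and the median SE was 0.147. The medians over all genes tested lay between -0.01 and 0.01 in every comparison. Cox6a2, the heart and skeletal muscle isoform of a complex IV subunit, was too low to test, with 13 reads over the 6 YSGr libraries and 8 over the 6 SG libraries.

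**Figure D3:**
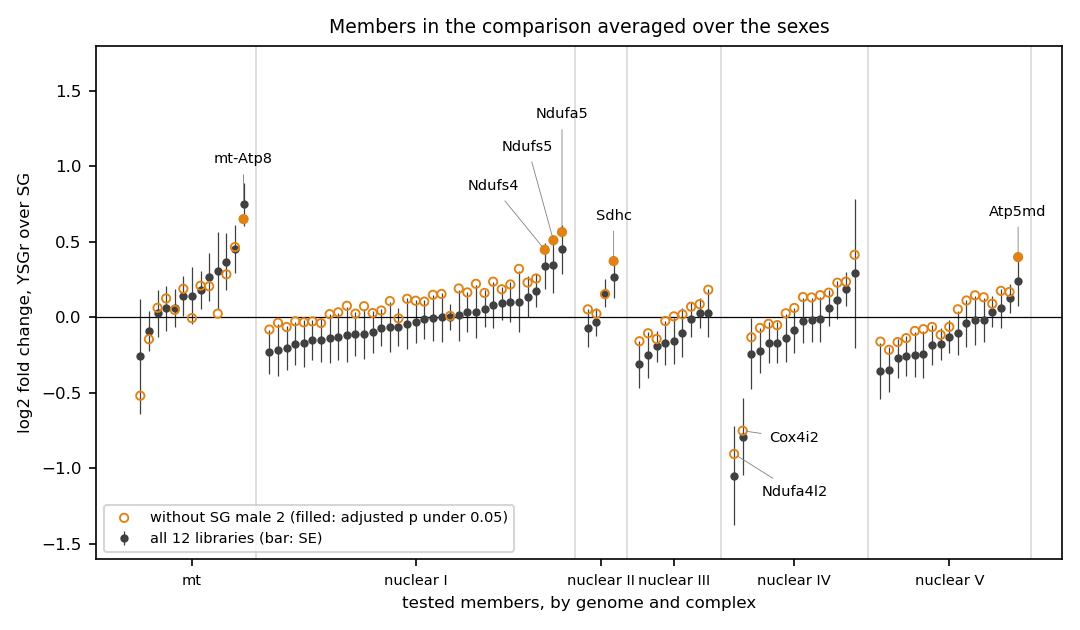
Log2 fold change of YSGr over SG, averaged over the sexes, with its SE for each of the 93 tested genes, by genome and complex, with all 12 libraries (black) and without SG male 2 (orange, filled where adjusted p was under 0.05). Most nuclear genes lie within 0.25 of 0, mt-Atp8 stands at 0.75, and the values without SG male 2 are shifted upward for most nuclear genes.

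SG male 2 bore on nearly all nuclear values. It was the highest of the 12 libraries for 69 of the 80 nuclear genes (86.3%, against 25.6% of all genes), with a median of 0.80 log2 above the mean of the other SG libraries. By complex it was highest for 31 of 35 genes of complex I, 2 of 4 of complex II, 8 of 9 of complex III, 12 of 15 of complex IV and 16 of 17 of complex V, and it was highest for 0 of the 13 mitochondrial genes. The nuclear genes have short transcripts, with a median exon length of 1550 bases against 4547 for all genes. Over all genes with 1000 to 2000 bases of exon the median difference of SG male 2 was 0.63. The part of transcript length or RNA quality in this shift was not tested.

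**Figure D4:**
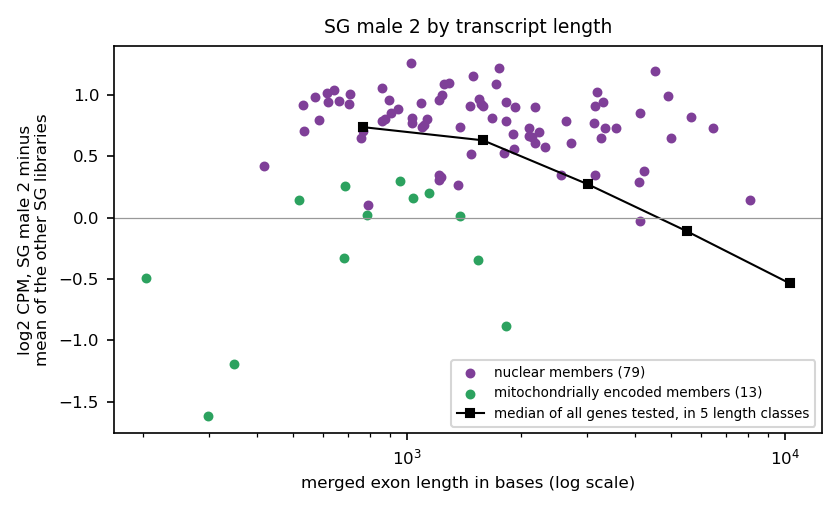
Difference of SG male 2 from the mean of the other SG libraries (log2 CPM, vertical axis) against merged exon length in bases (horizontal log axis), for 79 nuclear genes with a length, the 13 mitochondrial genes and the medians of all genes in 5 length classes. The class medians run from 0.74 for the shortest genes to -0.54 for the longest, and the nuclear genes lie around a median of 0.80.

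Without SG male 2, 5 nuclear genes rose and none fell (0 fell; 17 had an unadjusted p under 0.05), beside 13.1% of all genes called. These were Ndufa5, Ndufs4 and Ndufs5 of complex I, Sdhc of complex II and Atp5md of complex V, of which Ndufs4 and Ndufs5 are named because they passed here. The median of the nuclear genes was then 0.07.

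In complex I the nuclear genes, which build its matrix arm and its accessory shell, had a mean level of 5.52 ± 0.11 log2 CPM in YSGr and 5.53 ± 0.34 in SG (SD, n = 6 each). SG male 2 stood at 6.22, and the other 5 SG libraries at 5.36 to 5.42. Ndufa5, an accessory subunit of the matrix arm (chromosome 6, 24518666 to 24528013), had 19.6, 19.9 and 13.6 CPM in YSGr males and 15.7, 16.5 and 13.8 CPM in YSGr females. It had 12.6, 19.1 and 11.3 CPM in SG males and 11.9, 9.92 and 9.07 CPM in SG females. Apart from SG male 2, all SG libraries were below all YSGr libraries, and its log2 fold change was 0.45 with all libraries (SE 0.16, adjusted p = 0.0901) and 0.56 without SG male 2 (adjusted p = 0.023).

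Ndufs4, an accessory subunit needed for a stable complex I, had 36.2, 23.7 and 26.5 CPM in YSGr males and 45.9, 40.1 and 32.4 CPM in YSGr females. It had 23.8, 37.4 and 24.5 CPM in SG males and 24.7, 26.5 and 22.9 CPM in SG females. The 3 YSGr females were above the 3 SG females, whereas the male ranges overlapped; the averaged log2 fold change was 0.34 (adjusted p = 0.159), and 0.45 without SG male 2 (adjusted p = 0.045). Ndufs5, another accessory subunit, had 16.2 to 29.4 CPM in YSGr and 15.1 to 18.2 CPM in SG apart from SG male 2, which had 35.5 CPM. Its log2 fold change was 0.35 (adjusted p = 0.245) with all libraries and 0.51 (adjusted p = 0.040) without SG male 2. At the other end of complex I, Ndufb8, an accessory subunit of the membrane arm, had -0.23 (adjusted p = 0.326), with 77.5 to 101 CPM in YSGr and 87.1 to 102 CPM in SG apart from 179 CPM in SG male 2.

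Complex II, the succinate dehydrogenase that also serves the tricarboxylic acid cycle, had a mean level of 6.47 ± 0.11 log2 CPM in YSGr and 6.39 ± 0.17 in SG. Sdhc, 1 of its membrane anchors, had 85.1, 60.7 and 82.4 CPM in YSGr males and 78.9, 100.3 and 109 CPM in YSGr females. It had 64.4, 102 and 67.0 CPM in SG males and 62.6, 66.4 and 65.8 CPM in SG females. YSGr male 8 was below every SG library, and the log2 fold change was 0.27 (adjusted p = 0.224), and 0.37 without SG male 2 (adjusted p = 0.048). The flavoprotein Sdha stood at 0.16 (adjusted p = 0.28), the iron-sulfur protein Sdhb at -0.07 (0.75) and the other anchor Sdhd at -0.03 (0.86).

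Complexes III, IV and V lay slightly to the negative side with all libraries. The 15 tested nuclear genes of complex IV, described below, had a mean level of 5.03 ± 0.18 log2 CPM in YSGr and 5.18 ± 0.31 in SG. SG male 2 stood at 5.80 for complex IV, and the other SG libraries at 4.98 to 5.17. The 9 nuclear genes of complex III had a median log2 fold change of -0.16, and 0.01 without SG male 2. Their extremes were Uqcrq at -0.31 (adjusted p = 0.209) and Uqcrh, the hinge subunit beside cytochrome c1, at 0.03 (adjusted p = 0.92). Uqcrq had 57.4 to 80.7 CPM in YSGr and 68.7 to 81.3 CPM in SG apart from 141 CPM in SG male 2. The 17 genes of complex V had a median of -0.13, and -0.06 without SG male 2. Atp5e, the epsilon subunit of the rotor stalk, was lowest at -0.35 (adjusted p = 0.229), with 31.5 to 49.7 CPM in YSGr and 41.6 to 48.8 CPM in SG apart from 108 CPM in SG male 2.

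Atp5md, a small membrane subunit also called DAPIT, was at the other end of complex V. It had 61.5, 57.9 and 57.3 CPM in YSGr males and 59.5, 57.9 and 82.6 CPM in YSGr females. It had 46.7, 90.0 and 45.5 CPM in SG males and 53.2, 46.4 and 45.7 CPM in SG females. With SG male 2 its log2 fold change was 0.24 (adjusted p = 0.358), and without it, when the genotypes did not overlap, 0.40 (adjusted p = 0.027). The 3 genes for the c-ring protein of the rotor, Atp5g1, Atp5g2 and Atp5g3, had -0.25, -0.35 and -0.27 (adjusted p = 0.32, 0.15 and 0.18), none past the threshold. SG male 2 had the highest CPM of all 12 libraries for each of the 3, and without it they stood at -0.08, -0.21 and -0.16.

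**Figure D5:**
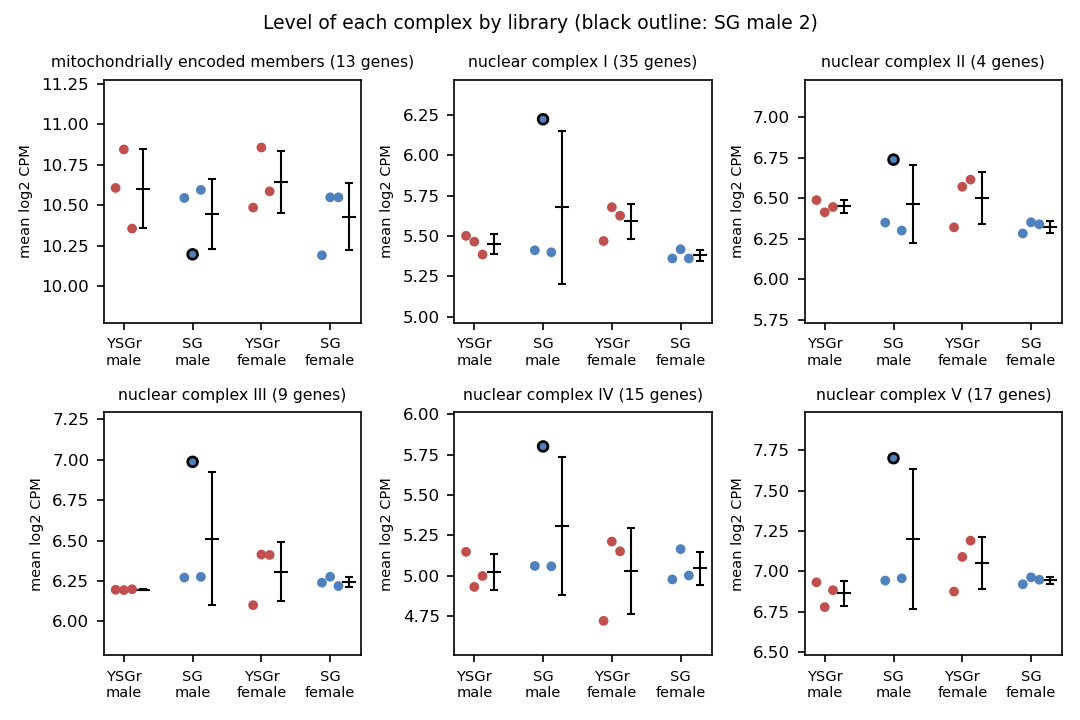
Mean log2 CPM per library (vertical axis) of the 13 mitochondrial genes and of the tested nuclear genes of complexes I to V. Males come before females, with YSGr to the left of SG within each sex. Bars are at the group mean with its SD, and SG male 2 is outlined in black. SG male 2 is the highest SG library in each nuclear panel, for example at 6.22 for complex I where the other SG libraries lie at 5.36 to 5.42, and is among the lowest for the mitochondrial genes.

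The largest changes among nuclear genes were in a pair of low-level isoforms of complex IV. Ndufa4l2 (chromosome 10, 127514967 to 127517154), known as a hypoxia-induced relative of the complex IV subunit Ndufa4, had 2.52, 1.91 and 1.45 CPM in YSGr males and 0.63, 2.40 and 1.43 CPM in YSGr females. It had 2.37, 4.98 and 3.16 CPM in SG males and 3.05, 4.14 and 2.51 CPM in SG females. YSGr male 7 and YSGr female 11 reached into the SG range, with 4 to 23 reads per library in YSGr and 21 to 43 in SG. Its log2 fold change of -1.05 (SE 0.33) had an adjusted p of 0.0562, which passed without YSGr female 11 (0.0204) and stood at 0.101 without SG male 2.

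Cox4i2 (chromosome 2, 152754173 to 152765037), the isoform of the complex IV subunit Cox4i1 that is known from lung and from oxygen sensing, had 1.01, 0.95 and 0.62 CPM in YSGr males and 0.63, 1.15 and 1.21 CPM in YSGr females. It had 1.34, 1.65 and 1.47 CPM in SG males and 1.53, 1.85 and 1.52 CPM in SG females. The genotypes did not overlap, which among the 80 nuclear genes was so only for Cox4i2 (5.90% of all genes tested did not overlap), but this was 4 to 9 reads per library in YSGr and 11 to 15 in SG. The log2 fold change was -0.79 (SE 0.26, adjusted p = 0.0646; 0.0493 without YSGr female 12). On the deposited log2 scale such low genes are drawn toward 0 by the prior count.

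The abundant partners of these isoforms had small changes that did not pass. Ndufa4 stood at 0.12 (adjusted p = 0.56). It had 78.5 to 112 CPM in YSGr and 78.4 to 85.8 CPM in SG, apart from 135 CPM in SG male 2. Cox4i1 stood at -0.14 (adjusted p = 0.60). It had 193 to 260 CPM in YSGr and 205 to 236 CPM in SG, apart from 433 CPM in SG male 2. Without SG male 2, Ndufa4 stood at 0.23 (adjusted p = 0.069) and Cox4i1 at 0.03 (adjusted p = 0.85). The ratio of Ndufa4l2 to Ndufa4 CPM was 0.00626 to 0.0252 in YSGr and 0.0276 to 0.0528 in SG, without overlap. That of Cox4i2 to Cox4i1 was 0.00276 to 0.00512 in YSGr and 0.00626 to 0.00800 in SG, apart from 0.00382 in SG male 2. Of the other complex IV isoforms, Cox6a1 had -0.22 (adjusted p = 0.35), Cox6b1 -0.01 (0.96), the testis isoform Cox6b2 -0.24 (0.53), Cox7a2 -0.08 (0.74), Cox8a -0.02 (0.95) and the muscle isoform Cox7a1 0.29 (0.73), the last on 1 to 18 reads in YSGr and 2 to 7 in SG. Cox7a2l, a Cox7a relative found in supercomplexes and counted here with complex III, had -0.01 (0.96). Per kilobase of merged exon, the highest nuclear genes in YSGr libraries were Cox6a1 (286 CPM per kb), Cox8a (285) and Atp5o (271). Atp5o is the stalk subunit OSCP. Exons were merged over all annotated transcripts, so this order depends on the annotation. In CPM without a length, Atp5b (827 to 1102) and Atp5a1 (667 to 904) were above Cox6a1 (172 to 236) in YSGr libraries.

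In the sexes apart, the nuclear genes had medians of opposite sign. In females the median log2 fold change was 0.15, with 60 of 80 genes positive (52.2% of all genes), and in males -0.29, with 8 of 80 positive (49.3% of all genes). The female effect exceeded the male effect for 76 of the 80 genes (50.4% of all genes), by a median of 0.43. Unadjusted p-values under 0.05 were found for 5 of the 80 genes in females (15.1% of all genes), 13 in males (29.9% of all genes) and 9 in the difference (11.6% of all genes), and 0 passed after adjustment in each. Without SG male 2 the male median was -0.01, with 39 of 80 positive and 0 called (6 unadjusted) beside 2.49% of all genes, and the difference had a median of 0.16 with 64 of 80 positive. In females leaving it out changes only the estimate of spread, and then 2 nuclear genes rose, Ndufs4 and Ndufa4, beside 5.56% of all genes called.

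None of the genes that assemble the complexes or express the mitochondrial genome passed the averaged test, in which 11.4% of all genes were called and 28.6% had an unadjusted p under 0.05. Averaged over the sexes, 0 of 19 complex I, 0 of 4 complex II, 0 of 6 complex III, 0 of 22 complex IV and 0 of 5 complex V assembly or regulation factors passed, with 1, 1, 0, 0 and 1 at an unadjusted p under 0.05 in that order and medians between -0.05 and 0.10. Of 17 genes of mitochondrial DNA replication and transcription 0 passed (1 unadjusted), and the smallest p was that of the DNA polymerase Polg at -0.26 (adjusted p = 0.0684). Of 16 genes of mitochondrial RNA processing 0 passed (3 unadjusted), and of 78 mitochondrial ribosomal proteins 0 passed (12 unadjusted; median -0.14). Of 6 carriers of adenine nucleotides and phosphate and outer membrane channels 0 passed (1 unadjusted; median -0.11). Cytosolic ribosomal proteins, also short and abundant messages, had a median of -0.37 with 4 of 83 called, all lower; in males 36 fell, beside 7.85% of all genes called, and 4 without SG male 2, beside 2.49%.

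Among the electron carriers and tricarboxylic acid cycle enzymes 3 genes fell. Suclg2, the GTP-forming succinyl-CoA ligase subunit, had 22.4, 19.0 and 21.9 CPM in YSGr males and 17.5, 25.2 and 25.1 CPM in YSGr females, against 32.0, 32.6 and 33.2 CPM in SG males and 36.5, 38.4 and 39.7 CPM in SG females. The genotypes did not overlap, and the log2 fold change was -0.70 (SE 0.11, adjusted p = 0.00207), a call that held under all 21 alternatives. Idh2, the mitochondrial NADP-dependent isocitrate dehydrogenase, had 67.7 to 146 CPM in YSGr and 120.0 to 158 CPM in SG (log2 fold change -0.48, adjusted p = 0.0248). Its call was lost without SG female 4 (0.0573), 5 (0.063) or 6 (0.0624), without YSGr male 9 (0.0585), without YSGr female 10 (0.0566), without SG male 2 and YSGr male 8 together (0.0545) and with sex left out of the model (0.0712). Etfa, of the flavoprotein that brings electrons from fatty acid oxidation to ubiquinone, had 25.04 to 34.3 CPM in YSGr and 38.2 to 50.7 CPM in SG (-0.41, adjusted p = 0.0199; 0.054, 0.0541 and 0.0538 without SG females 4, 5 and 6). These were 2 of 18 tricarboxylic acid cycle enzymes and 1 of 8 carriers and further subunits, beside 11.4% of all genes.

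Of 18 regulators of mitochondrial biogenesis 0 passed averaged over the sexes (4 unadjusted; median 0.02), beside 11.4% of all genes called and 28.6% unadjusted. Tfam, which packages and transcribes mitochondrial DNA, stood at -0.10, Nrf1 at -0.05, Gabpa at 0.03 and Esrra at 0.18. In males 2 of the 18 rose, beside 7.85% of all genes called. Ppargc1a, the coactivator PGC-1alpha, had 20.0, 30.1 and 18.3 CPM in YSGr males and 12.97, 4.42 and 12.1 CPM in SG males (log2 fold change 1.33, adjusted p = 0.0462), against 8.40, 15.1 and 9.87 CPM in YSGr females and 12.2, 12.2 and 10.6 CPM in SG females. Esrrg, an estrogen-related receptor, had 13.8, 18.6 and 12.5 CPM in YSGr males and 6.49, 2.76 and 5.68 CPM in SG males (1.66, adjusted p = 0.0407). Esrrg had 4.41, 12.1 and 3.65 CPM in YSGr females and 7.52, 4.68 and 4.37 CPM in SG females. YSGr males 7, 8 and 9 and YSGr female 11 were the YSGr libraries with the highest Ppargc1a and Esrrg. They also had the highest markers of differentiating and mature granule neurons and of Purkinje cells and interneurons. The part of these cells in the changes of Ppargc1a and Esrrg was not tested. Both genes had their lowest value among the male libraries in SG male 2. Without that library Ppargc1a stood at 0.83 (adjusted p = 0.11) and Esrrg at 1.28 (adjusted p = 0.129), and without YSGr male 8 at 1.11 (0.164) and 1.49 (0.137). The female minus the male effect was -1.44 for Ppargc1a and -1.54 for Esrrg and did not pass (adjusted p = 0.429 for each). Ppargc1a kept its male call under 7 of 21 alternatives and Esrrg under 8 of 21. Leaving out SG male 3, YSGr male 7, YSGr male 9, YSGr female 10 or any SG female also ended both calls, with adjusted p of 0.0502 to 0.0703, as did leaving out YSGr female 12 that of Ppargc1a (0.0508).

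The promoters of nuclear members were searched for the motifs of these regulators, as RefSeq gives them (GRCm38.p6, 250 bases before to 50 after the start). Of the 81 nuclear genes 65 had a window. Searched on both strands, the NRF1 motif GCATGCGC was present in 10 (15.4%, against 5.75% of 11045 tested genes with a window), the YY1 motif AAGATGGC in 9 (13.8%, against 4.86%), the GABPA motif CCGGAAGT in 5 (7.69%, against 8.37%) and the ERR motif CAAGGTCA in 4 (6.15%, against 1.37%). No motif is contained in another, and 23 windows (35.4%, against 17.6%) held NRF1, YY1 or GABPA. The 3 printed next, 5′ to 3′ on the gene's strand with motif letters in capitals, are shown because they hold different motifs and 2 belong to genes that passed without SG male 2. Ndufs4 (chr13:114388045-114388344, minus strand) has AAGATGGC, Ndufs5 (chr4:123718137-123718436, minus strand) has CAAGGTCA on the opposite strand, where it reads TGACCTTG, and Uqcr11 (chr10:80406772-80407071, minus strand) has CCGGAAGT and GCATGCGC.
Ndufs4: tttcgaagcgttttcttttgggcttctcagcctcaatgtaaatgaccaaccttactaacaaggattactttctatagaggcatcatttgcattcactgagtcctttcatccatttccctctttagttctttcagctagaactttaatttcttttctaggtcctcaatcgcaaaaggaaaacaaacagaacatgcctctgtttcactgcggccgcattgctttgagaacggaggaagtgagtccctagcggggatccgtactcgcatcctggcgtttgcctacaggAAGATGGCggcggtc
Ndufs5: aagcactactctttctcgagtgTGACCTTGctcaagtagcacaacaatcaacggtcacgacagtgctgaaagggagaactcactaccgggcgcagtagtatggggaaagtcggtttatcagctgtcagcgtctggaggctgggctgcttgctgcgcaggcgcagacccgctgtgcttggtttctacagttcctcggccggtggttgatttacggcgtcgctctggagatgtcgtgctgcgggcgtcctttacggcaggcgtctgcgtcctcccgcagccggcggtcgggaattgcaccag
Uqcr11: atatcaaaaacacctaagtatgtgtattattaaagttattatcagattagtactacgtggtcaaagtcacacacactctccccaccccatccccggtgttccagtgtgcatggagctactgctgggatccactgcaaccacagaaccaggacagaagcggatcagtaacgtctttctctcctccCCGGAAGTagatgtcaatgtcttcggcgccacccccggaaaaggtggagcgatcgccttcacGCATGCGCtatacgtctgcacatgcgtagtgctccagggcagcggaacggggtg
A match is a run of letters and not a shown binding site. The ERR motif was found in Ndufs5, Sdhd, Atp5g3 and Atp5l.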

How the data were processed

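Tumor RNA of 12 samples was sequenced at BGI (BGISEQ-500), per the labels. What the authors deposited is a single log2 CPM table, that is, log2 counts scaled to a common library size. The submitters' processing notes name Trimmomatic 0.33, RSEM 1.2.12, Bowtie2, Picard 1.95, edgeR 3.30.3 and build mm10. Which step each served, the annotation, strand use and any low-count filter: not given in the sources used here. Unlogged, each library's values fell on equal steps, which yielded estimated reads. Among genes of low or moderate read number, 92.3 to 94.0% were whole within 0.02 reads. Abundant genes, most mitochondrial ones among them, were outside that check. Depth was 8854762 to 9478629 estimated reads. A gene with 0 reads had 0.211 CPM in every library, and 3 reads added 0.301 to 0.333 CPM to this. CPM values and ratios of single genes include that offset, which matters for low genes, and the summed marker CPM do not.

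Genotype and sex labels gave the groups. limma 3.58.1 in R 4.3.3 was run on the values as deposited. Genes had to exceed 0 log2 CPM in 3 or more libraries, which left 14147. The fit had 1 coefficient per group, eBayes with a trend, two-sided tests and Benjamini-Hochberg adjustment over all genes at 0.05, and was tested on simulated data. Comparisons were YSGr against SG with the sexes averaged, within females, within males, and the female minus the male effect. Fold changes of low genes are understated by the prior count.

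The members, the other gene lists and the markers were chosen with earlier results of these data known. Named genes were the mitochondrial genes; the called genes and the highest and lowest averaged fold change of each nuclear complex; tissue or hypoxia isoforms and their partners; complex II; Yap1; and, among the 3 smallest p-values of each list, those described. Ndufs4, Ndufs5, Uqcr11, Atp5o and genes named for a motif or a call without SG male 2 were chosen after their values were seen. Ndufa4 and Ndufa4l2 were counted with complex IV and Cox7a2l with complex III. Ndufab1, Cyc1 and Cycs do not match the name patterns and stand among the carriers and further subunits.

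Alternatives were no filter or a stricter one (log2 CPM above 1 in at least 6 libraries), log2(CPM + 1), median centring, quantile normalization, library weights, eBayes without the trend, sex left out or each sex fitted alone, and each library left out in turn. Leaving out SG male 2 and YSGr male 8 together was added after seeing the data. Lengths, coordinates and mitochondrial sequences are from GENCODE M21, promoters from RefSeq (GRCm38.p6).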

Additional observations from a re-analysis of the deposited data

Results flagged for a closer look

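In the SG group, SG male 2 lay far above the other 5 libraries in the mean level of the nuclear genes, where the gap to its nearest neighbour was 0.904 of the whole range of the group. The same gap was 0.934 for complex I, 0.849 for complex II, 0.925 for complex III, 0.772 for complex IV and 0.945 for complex V. Gene by gene, SG male 2 was such a high library for 68 of the 80 tested nuclear genes. In the opposite direction it was far below the other SG libraries for mt-Nd4l (0.708), mt-Nd5 (0.681) and mt-Co1 (0.670). In the YSGr group, YSGr male 9 was far below the others for mt-Atp6 (0.630) and mt-Atp8 (0.658), YSGr female 10 was far below them for Cox5a, and YSGr female 12 was far above them for Atp5md and far below them for Ndufs5. Chance alone marks about 1 in 20 groups by this criterion, and the nuclear genes share their libraries, so the marks on them are not independent of one another.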

How the results depend on the processing

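No paired analysis was possible because the 4 groups share no replicate numbers. No result reversed its direction where it was called. The library weights of limma ran from 0.102 for SG male 2 to 3.33 for YSGr female 10. YSGr females 11 and 12 had only 0.270 and 0.417, so YSGr female 10 carried most of the weight of its group. With limma's library weights, where SG male 2 had the lowest weight (0.102), counts past the threshold were 4986 of all genes, 17 nuclear and 3 mitochondrial members averaged over the sexes, 4483, 24 and 1 in females, 2326, 1 and 2 in males, and 675, 1 and 1 in the difference; the median of the nuclear members became -0.0126 in males and 0.0548 in the difference. Averaged over the sexes, 1 nuclear member passed with no filter and without the trend (Cox4i2) and 1 with log2(CPM + 1) (Ndufa4l2), 2 with quantile normalization (both of these), and 5 without SG male 2 and YSGr male 8. Without those 2 libraries, 1268 genes, 5 nuclear and 1 mitochondrial passed in females, 245 genes and 0 mitochondrial in males, and the male nuclear median was 0.00534. Fitted alone, females gave 761 genes, 2 nuclear and 1 mitochondrial, and males 318 genes and 0 mitochondrial. In males 0 mitochondrial genes passed with no filter and without the trend. Without each library in turn, all-gene counts ranged from 900 to 2088 averaged, 94 to 785 in females, 286 to 1662 in males and 1 to 119 in the difference. Nuclear counts then ranged from 0 to 5 averaged and 0 to 2 in females, mitochondrial counts from 1 to 2 averaged and 0 to 1 in either sex, and nuclear medians from -0.13 to 0.07 averaged, -0.42 to -0.00929 in males and 0.16 to 0.56 in the difference. Where 1 library decided, it is named beside the result; for the rest the cause was not tested. Among named genes, 4907 alternative values kept their direction and side of the threshold, 122 lost and 115 gained a call, and 184 changed sign without a call on either side. With 0 to 43 reads per library, Ndufa4l2, Cox4i2, Cox7a1 and Cox6a2 are limited by depth.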
